A study of Sus scrofa with 16 samples.

Results

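Elongated pig conceptuses were compared with spherical ones across all probes of a cDNA macroarray. A conceptus here is the embryo with its surrounding membranes. The array titles put 8 of the 16 arrays in the elongated shape and the remaining 8 in the spherical shape, so every array of the series was used. The elongated shape comprised 4 arrays of tubular conceptuses, 13 to 45 mm long, and 4 arrays of filamentous conceptuses, longer than 100 mm. The spherical shape comprised 4 arrays of small spherical conceptuses of 1 to 5 mm and 4 arrays of large spherical conceptuses of 6 to 11 mm. Total RNA was amplified, made into radioactively labelled target and hybridised to membranes that carried PCR products chosen for expression in the embryo. The labels name no treatment in any of the 4 groups, and breed, gestational day, litter and number of conceptuses per array were not given in the sources used here. P-values therefore measure the spread between these samples, which may be partly technical. Shape and stage of development advance together in these samples and cannot be told apart.

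The pig blastocyst remains free in the uterus for an extended time and changes from a sphere through a tubular form to a long thread before it attaches. This remodelling involves rearrangement and movement of the trophectoderm, the outer epithelium that later forms the placenta, and of the endoderm beneath it. In the same period the pig conceptus makes oestrogens, which act as its signal of pregnancy to the mother. Steroid output depends on delivery of cholesterol into mitochondria by STAR, side-chain cleavage by CYP11A1, conversion to androgens by CYP17A1 and aromatisation by CYP19A1.

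The arrays were alike in overall brightness, with medians of 65.7 to 69.4 intensity units for elongated and 62.8 to 71.4 for spherical arrays. Rank correlations between arrays over all 1015 probes had a median of 0.902 within a shape and 0.900 between shapes, so whole profiles of the shapes overlapped. As a further description, the profile of each array was correlated with the difference between the shapes calculated from the other 15 arrays. This gave a positive value, meaning a profile nearer its own shape, for 12 of the 16 arrays. The exceptions were tubular replicate 1, at -0.11, and large spherical replicates 1, 3 and 4, at -0.19, -0.21 and -0.07. Thus 3 of the 4 large spherical arrays lay towards the elongated arrays. The 4 arrays that carry the number 1 in their titles lay at 1 end of the first principal component, which held 23.2% of the variance. Their scores were -8.17 or lower. Filamentous replicate 4, at -4.25, lay between them and the remaining arrays, at 0.99 or higher. Each stage contributed 1 of the arrays numbered 1, and values without them are given below for the leading genes.

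**Figure D1:**
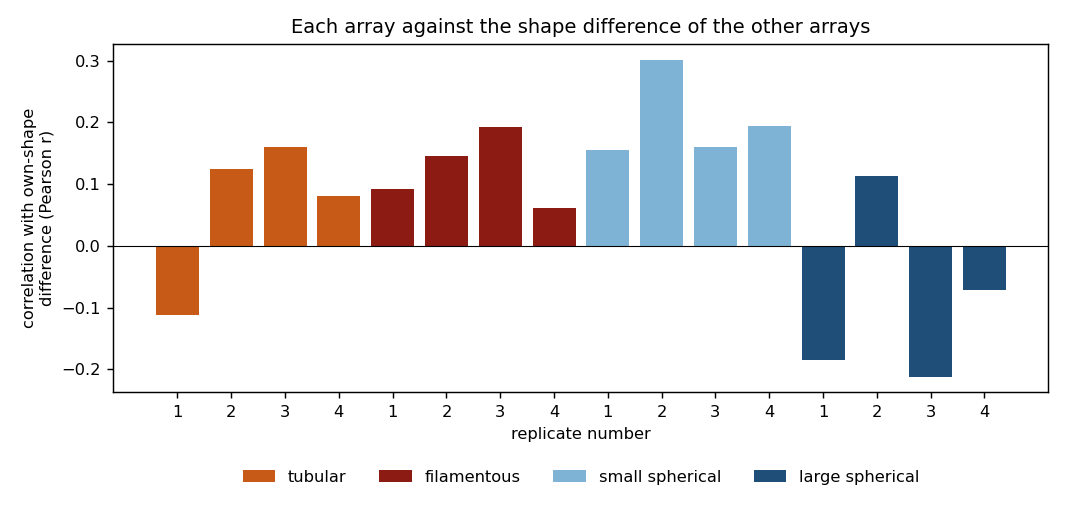
Pearson correlation, over 1014 probes, of each array's profile with the shape difference of the remaining arrays, turned so that a positive bar means nearer to its own shape. Bars are single arrays in 4 stages; 12 of 16 are positive, and 3 of the 4 large spherical bars are negative.

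STAR (steroidogenic acute regulatory protein) rose in elongated conceptuses. Its intensity was 113 at the lowest, 156 at the median and 193 at the highest of the 8 elongated arrays, against 31.8, 67.7 and 178 on the 8 spherical arrays. The elongated values were tightly grouped, whereas the spherical values were broad and reached into the elongated range. Mean intensity was 157 ± 26.1 in elongated and 87.3 ± 56.7 in spherical conceptuses (SD, n = 8 each). With 1 mean fitted per stage, the log2 difference was 1.11 ± 0.16 (SE), a 2.16-fold difference, with a limma Benjamini-Hochberg adjusted p of 0.00587. STAR was the only probe of 1014 to pass the adjusted threshold of 0.05, which is 0.0986% of the probes, and 0 probes (0%) passed as lower. Less RNA per cell and fewer cells of a type cannot be told apart in RNA from whole conceptuses, here or for any gene below.

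The spherical values of STAR came from stages that did not overlap. Its mean intensity was 40.0 at the small spherical stage, 135 at the large spherical, 160 at the tubular and 153 at the filamentous stage. Elongated conceptuses exceeded small spherical ones by 1.97 ± 0.20 on the log2 scale (limma adjusted p = 5.93e-05) and large spherical ones by 0.25 ± 0.20 (unadjusted p = 0.225, adjusted p = 0.931). The step between the spherical stages was itself significant, at 1.72 (limma adjusted p = 0.00207). When both stages of a shape were given 1 common mean, the spread between the spherical stages entered the error and the adjusted p of STAR was 0.346. In that fit 0 probes passed in limma and 102 (10.1%) were at the unadjusted level. An exact two-sided permutation of the 8 and 8 arrays gave an unadjusted p of 0.00963.

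At the unadjusted level of 0.05, 107 probes (10.6%) differed between the shapes, where 50.7 would be called by chance. Of these, 64 (6.31%) were higher and 43 (4.24%) lower in elongated conceptuses. Probes with 1 gene symbol made up 39 of the higher and 27 of the lower ones. Only STAR passed the adjustment in the comparison of all 16 arrays. Leaving out tubular replicate 1, small spherical replicate 4, large spherical replicate 1 or large spherical replicate 3 gave 2 probes, leaving out filamentous replicate 1 gave 3, and leaving out small spherical replicate 3 gave 5, with STAR among them each time. The genes described below did not pass and are given by their values. Over all probes, 438 (43.2%) had a positive difference and the median difference was -0.04.

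TGFB3, a secreted growth factor of the transforming growth factor beta family, had the largest difference on the log2 scale among the 1014 probes. Its intensity was 14.2, 71.6 and 99.5 (lowest, median, highest) on elongated arrays, against 1.79, 20.3 and 55.0 on spherical arrays. On 6 of 8 elongated arrays it exceeded every spherical array. The log2 difference was 2.14 ± 0.44 (limma adjusted p = 0.0743), and 1.32, which also did not pass, with an offset of 10 added before log2. The lowest values of TGFB3 have no measured floor. As with STAR, the small spherical stage stood apart, with stage means of 5.86, 47.0, 65.4 and 71.8 from small spherical to filamentous conceptuses. The difference was 3.84 ± 0.54 against small spherical (limma adjusted p = 0.00114) and 0.43 ± 0.54 against large spherical conceptuses (unadjusted p = 0.434).

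PLAC1, a placenta-enriched gene of the trophoblast, had 17.6, 35.7 and 41.5 intensity units on elongated arrays, against 9.39, 19.9 and 28.4 on spherical arrays. On 5 of 8 elongated arrays it lay above all spherical arrays. Its log2 difference was 0.88 ± 0.20 (limma adjusted p = 0.0743), and it was 1.41 against small and 0.34 against large spherical conceptuses. CYP11A1, the side-chain cleavage enzyme, had 60.4, 95.4 and 115 units on elongated arrays and 23.5, 52.2 and 118 on spherical arrays, and the ranges overlapped. Its log2 difference was 0.66 ± 0.22 (limma adjusted p = 0.324), with 1.16 against small and 0.17 against large spherical conceptuses. PDPN (podoplanin, a membrane glycoprotein of epithelia) had 115, 191 and 230 units on elongated and 12.6, 156 and 203 units on spherical arrays. Its log2 difference was 1.14 ± 0.39 (limma adjusted p = 0.331), with 2.20 against small and 0.08 against large spherical conceptuses. In these 3 genes, as in STAR and TGFB3, large spherical conceptuses were nearer to the elongated level than to the small spherical one.

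A different arrangement was seen in TMSB10 (thymosin beta, which binds actin monomers) and GABARAPL2 (a ubiquitin-like protein of autophagosome membranes). These were the 2 probes (0.197%) whose 8 elongated and 8 spherical arrays did not overlap. TMSB10 had 97.5, 115 and 161 intensity units on elongated arrays, against 46.4, 78.6 and 93.7 on spherical arrays. The means were 118 ± 20.5 and 76.6 ± 14.1 (SD, n = 8 each), a 1.54-fold difference. The log2 difference was 0.63 ± 0.14 (limma adjusted p = 0.0743), with 0.78 against small and 0.47 against large spherical conceptuses. The stage means of 69.1, 84.1, 119 and 116 from small spherical to filamentous show a pair of lower and a pair of higher stages.

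GABARAPL2 had 60.8, 81.5 and 136 intensity units on elongated arrays, against 22.4, 51.4 and 58.4 on spherical arrays. Its lowest elongated array lay just above its highest spherical array. Without tubular replicate 2 or tubular replicate 4 the number of probes without overlap was 4. The log2 difference was 0.82 ± 0.20 (limma adjusted p = 0.0939), with 1.04 against small and 0.60 against large spherical conceptuses. GABARAP, a related family member singled out after its values were seen, averaged 95.9 ± 17.2 units in elongated and 73.1 ± 12.3 in spherical conceptuses (SD, n = 8 each). Its log2 difference was 0.39 ± 0.14 (limma adjusted p = 0.358). For a probe whose arrays separate completely the exact permutation p is fixed at 0.000155, the smallest that 12870 arrangements of 8 and 8 arrays allow. Multiplied by 1014 probes it is 0.158, so separation alone cannot pass an adjustment over the array.

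DLD, the dihydrolipoamide dehydrogenase shared by several mitochondrial enzyme complexes, had 59.2, 74.7 and 93.7 units on elongated arrays, against 31.6, 47.6 and 71.1 on spherical arrays. Its difference was nearly the same against either spherical stage, 0.71 against small and 0.67 ± 0.20 against large, and 0.69 ± 0.16 pooled (limma adjusted p = 0.0743). ANXA2, a calcium-dependent membrane-binding protein, had 102, 134 and 201 units on elongated arrays, against 69.1, 95.8 and 116 on spherical arrays. On 7 of 8 elongated arrays it lay above all spherical arrays, and the log2 difference was 0.61 ± 0.14 (limma adjusted p = 0.0743). ANXA2 was 165 in filamentous and 122 in tubular conceptuses, a step of 0.42 that was not significant (limma adjusted p = 0.994).

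YWHAH, an adaptor that binds phosphorylated proteins, led the genes with lower values in elongated conceptuses. It had 80.1, 87.0 and 123 intensity units on elongated arrays, against 105, 141 and 187 on spherical arrays. On 7 of 8 elongated arrays it lay below every spherical array. The log2 difference was -0.58 ± 0.13 (limma adjusted p = 0.0743), with -0.67 against small and -0.50 against large spherical conceptuses.

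**Figure D2:**
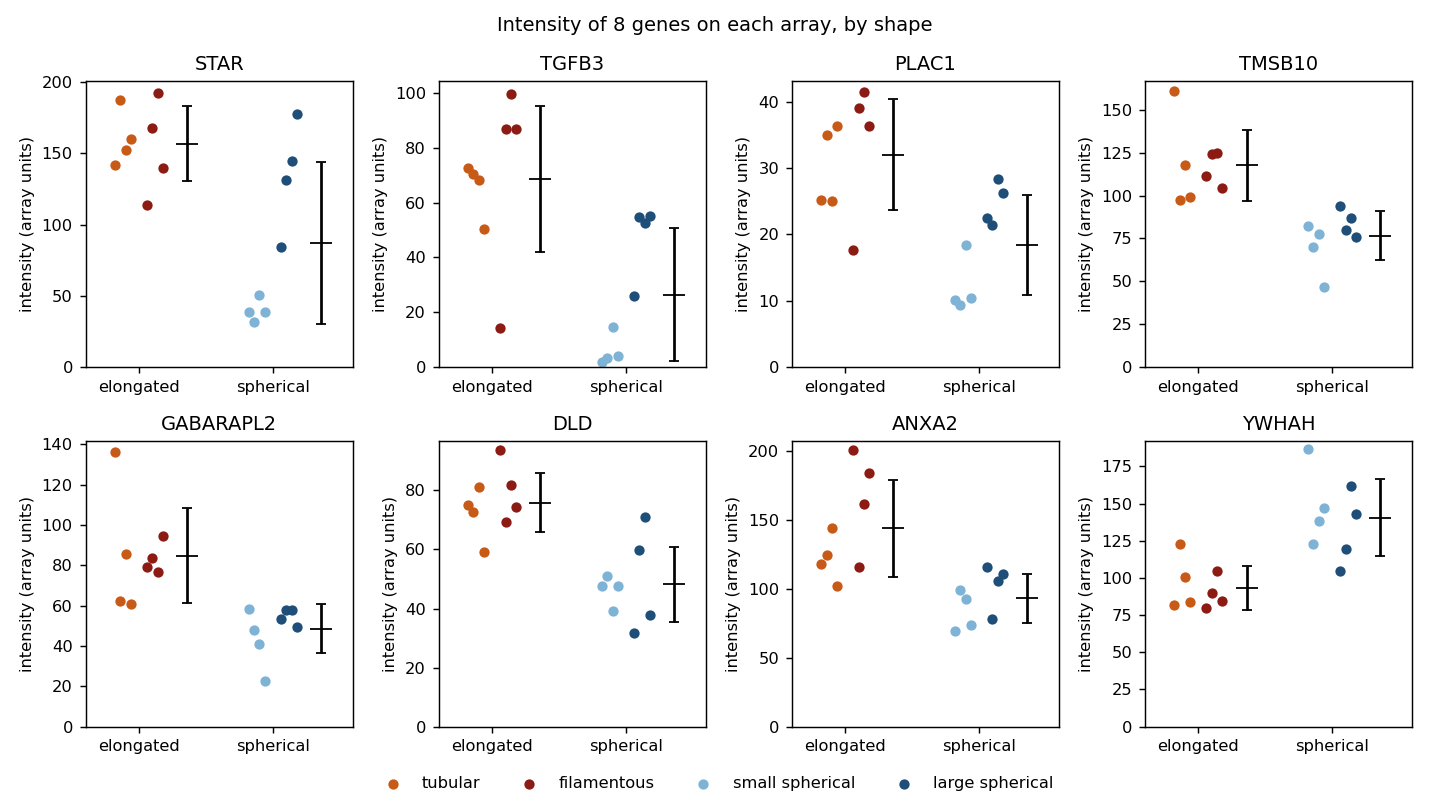
Intensity in array units of the 8 named genes with the smallest p for shape, on 8 elongated and 8 spherical arrays, with points coloured by stage and horizontal bars with whiskers for the mean and SD of each shape. In STAR, TGFB3 and PLAC1 every small spherical point lies below every large spherical point. In TMSB10 and GABARAPL2 the spherical stages overlap, and the shapes separate without overlap.

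The difference between the 4 stage means of each probe was divided into 3 parts, namely the pooled shape difference, the step from small to large spherical and the step from tubular to filamentous. This division was chosen after values had been seen and is a description. For STAR 45.5% of the between-stage variation lay on shape and 54.3% on the spherical step. The share on shape was 44.0% for TGFB3, 57.1% for PLAC1, 47.0% for CYP11A1 and 36.7% for PDPN. It was 88.9% for TMSB10, 87.1% for GABARAPL2, 97.5% for DLD and 94.4% for YWHAH. Among the 64 probes higher at the unadjusted level, shape was the largest part in 40, the spherical step in 22 and the elongated step in 2. Among the 43 lower ones shape was the largest part in 42, the spherical step in 0 and the elongated step in 1. The median share on shape was 54.6% in the higher and 80.2% in the lower probes. These probes were selected by their shape difference, so large shares on shape are favoured by the selection itself. The counts and medians therefore cannot show that shape outweighs the other parts.

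**Figure D3:**
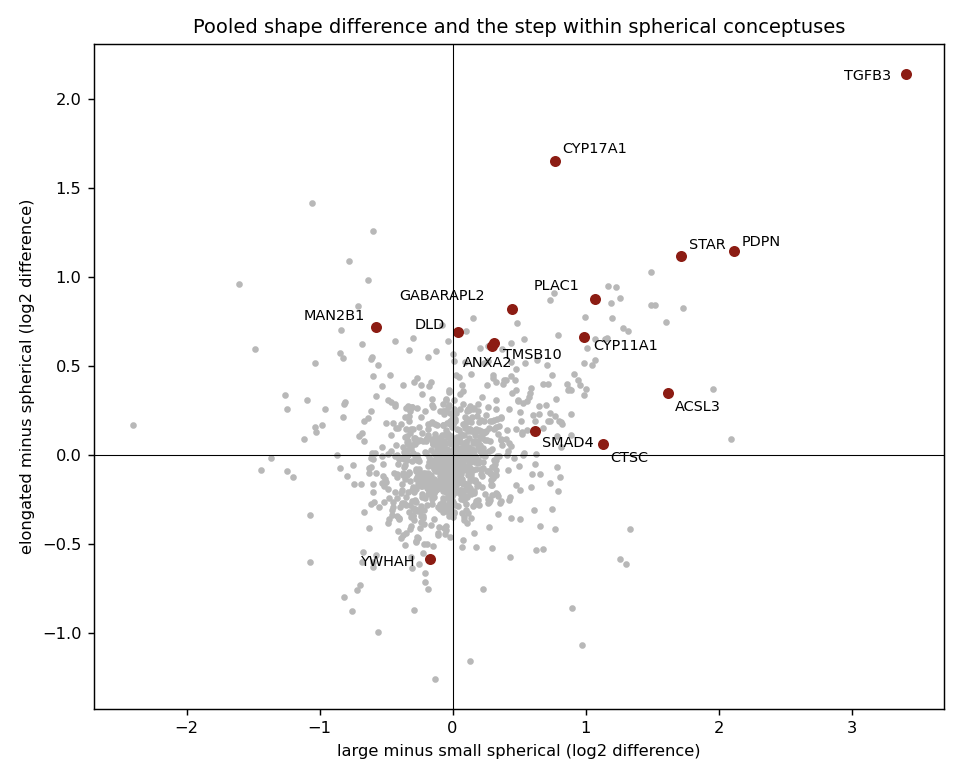
Pooled elongated minus spherical log2 difference (vertical) against the large minus small spherical log2 difference (horizontal) for 1014 probes, with genes of the text in red. TGFB3, STAR, PDPN, PLAC1 and CYP11A1 lie to the upper right, DLD lies above the origin of the horizontal axis, and CTSC and ACSL3 lie to the right with small pooled differences.

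The spherical stages taken one at a time gave unequal counts, from comparisons that share the 8 elongated arrays. Against small spherical conceptuses 23 probes (2.27%) passed at an adjusted p of 0.05 in limma, 20 higher (1.97%) and 3 lower (0.296%). Against large spherical conceptuses 0 of 1014 passed, with 46 probes (4.54%) at the unadjusted level. The count was 44 without small spherical replicate 3 and between 5 and 13 without any single one of tubular replicates 2 to 4, filamentous replicates 2 to 4 or small spherical replicates 1, 2 and 4. The 23 probes comprised 12 named genes and 11 probes without a single symbol. The named genes that rose were STAR, TGFB3, PLAC1, PDPN, TMSB10, ADSL, SMARCA4, ANXA2, CYP11A1, GABARAPL2 and SAR1B, and YWHAH fell. SMARCA4, the ATPase of a chromatin remodelling complex, rose by 1.11 against small spherical conceptuses and differed by 0.09 from large spherical ones. SAR1B, a GTPase of vesicle export from the endoplasmic reticulum, was at the brightest value of the array on 3 elongated arrays and 1 large spherical array, so the size of its differences is not given. Whether the differences from the spherical stages were unequal is tested by the spherical step itself, which passed in 4 probes (0.394%), namely STAR, TGFB3 and the unnamed probes 954 and 1010. Between tubular and filamentous conceptuses 0 probes passed in limma, with 34 (3.35%) at the unadjusted level.

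**Figure D4:**
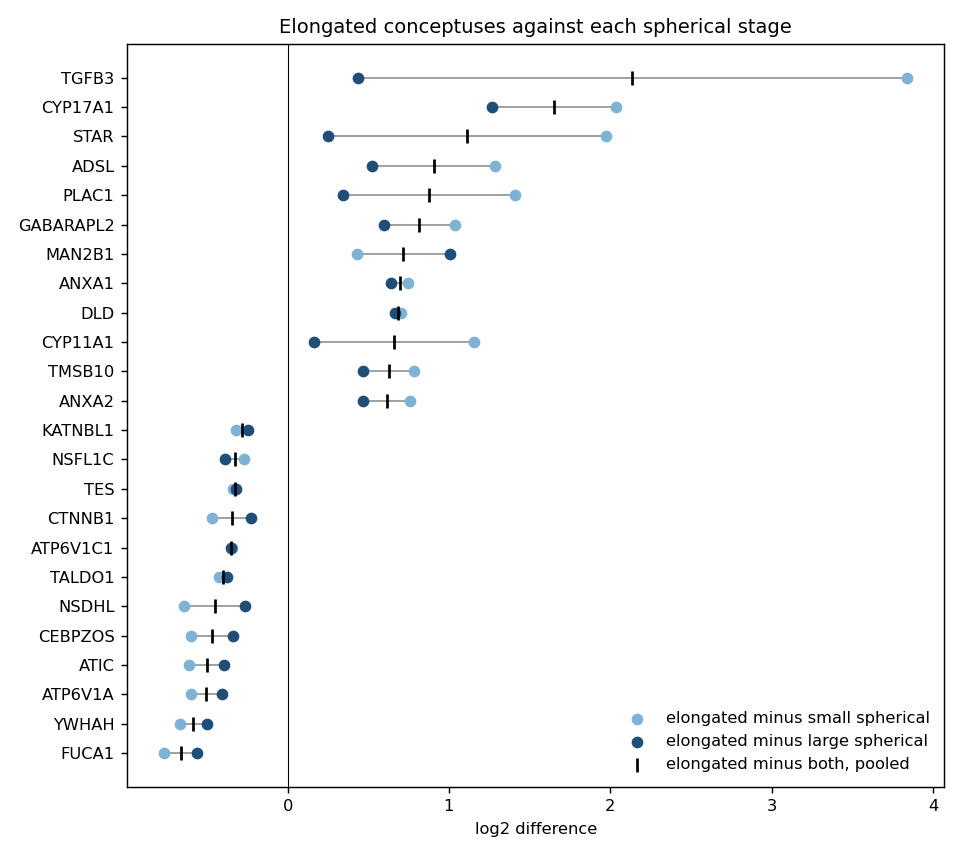
Log2 difference of elongated conceptuses from the small spherical stage (light), the large spherical stage (dark) and both pooled (tick), for the 12 genes with positive and 12 with negative differences and the smallest p. The points of STAR, TGFB3 and PLAC1 are far apart, whereas those of DLD, TES and ATP6V1C1 nearly coincide.

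Further genes with higher values in elongated conceptuses did not pass the adjustment. ADSL, an enzyme of purine synthesis, had 265, 329 and 606 units on elongated arrays and 95.5, 205 and 336 on spherical arrays (log2 difference 0.91 ± 0.24, limma adjusted p = 0.147). On 3 elongated arrays ADSL was at the brightest value of the array, so its difference may be understated there. ATIC, another enzyme of purine synthesis, had the opposite sign, with 18.8, 33.5 and 46.7 units on elongated arrays, against 36.4, 43.1 and 60.6 on spherical arrays (-0.50 ± 0.17, limma adjusted p = 0.331). MAN2B1, a lysosomal mannosidase, had 27.5, 51.5 and 115 units on elongated and 22.7, 29.8 and 65.0 on spherical arrays, and FUCA1, a lysosomal fucosidase, had 36.4, 46.6 and 66.0 on elongated and 44.4, 75.3 and 111 on spherical arrays. Their log2 differences were 0.72 ± 0.22 and -0.66 ± 0.19. MAN2B1 was the only one of the 12 leading higher genes with a larger difference against large than against small spherical conceptuses, 1.00 and 0.43.

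The other genes with lower values in elongated conceptuses had the same sign against each spherical stage. ATP6V1A and ATP6V1C1, subunits of the vacuolar proton pump, had log2 differences of -0.50 ± 0.18 and -0.35 ± 0.13. ATP6V1C1 was -0.35 against either spherical stage. CTNNB1 (beta-catenin, of cell junctions and Wnt signalling) lay between 172 and 249 units on elongated and between 203 and 331 on spherical arrays, with a difference of -0.35 ± 0.12. On 6 of its 8 elongated arrays it was below all spherical arrays. TES, a protein of focal adhesions, differed by -0.33 ± 0.13, NSFL1C, a cofactor of the VCP ATPase, by -0.33 ± 0.12, and KATNBL1, a regulator of microtubule severing, by -0.28 ± 0.11. NSDHL of cholesterol synthesis and TALDO1 of the pentose phosphate pathway differed by -0.45 ± 0.17 and -0.40 ± 0.15. CEBPZOS, at 11.7 to 16.3 units on elongated and 15.0 to 29.8 on spherical arrays, differed by -0.47 ± 0.14, or -0.31 with the offset of 10. The limma adjusted p of these 9 genes lay between 0.230 and 0.361.

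Genes were also described in 19 lists by function. All 8 measured genes of steroid synthesis had a positive difference, against 43.2% of all probes, and 1 of them, STAR, passed, against 0.0986% of all probes. The list median was 0.37 pooled, 0.84 against small and -0.05 against large spherical conceptuses, beside -0.04, -0.06 and -0.03 over all probes. CYP17A1 had 5.65, 19.1 and 36.5 units on elongated arrays and 1.24, 5.80 and 26.1 on spherical arrays. Its log2 difference of 1.65 ± 0.54 (limma adjusted p = 0.298) comprised 2.04 against small and 1.27 ± 0.66 against large spherical conceptuses. The difference was 0.72 with an offset of 10 added before log2, and 2.55 ± 0.44 on the 12 arrays numbered 2 to 4, where it passed (limma adjusted p = 0.0359) and the shapes did not overlap. The arrays numbered 1, left out there, had the opposite sign for CYP17A1. CYP19A1, the aromatase, had 160, 217 and 249 units on elongated arrays, against 142, 198 and 253 on spherical arrays. Its difference was 0.06 ± 0.13 (limma adjusted p = 0.907), and under array weights and without tubular replicate 1 the sign turned.

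Of 6 annexins and calcium-binding genes 5 were positive (median 0.41), against 43.2% of all probes. None of the 6 passed in limma, and 3 were higher at the unadjusted level, against 6.31% of all probes. ANXA1 had 26.6, 40.9 and 91.2 units on elongated arrays, against 19.1, 25.3 and 38.9 on spherical arrays, a difference of 0.70 ± 0.21 (limma adjusted p = 0.230). ANXA4 had 20.1, 32.7 and 101 on elongated arrays and 15.8, 23.0 and 26.1 on spherical arrays, and on 7 of 8 elongated arrays it exceeded all spherical arrays. S100A1 had the negative value, -0.26. The median of the list was 0.54 against small and 0.32 against large spherical conceptuses.

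Of 7 genes of mesoderm and vascular progenitors 5 had a positive difference (median 0.30), against 43.2% of all probes, and 0 passed. The list median was 0.26 against large but -0.06 against small spherical conceptuses. VIM (vimentin) had 27.5, 43.9 and 86.0 units on elongated arrays, against 21.4, 32.5 and 40.5 on spherical arrays, and 6 elongated arrays exceeded all spherical ones (0.59 ± 0.20, limma adjusted p = 0.331). KDR, a receptor for vascular endothelial growth factor, differed by 0.39 ± 0.17 (0.25 with a trend along probe number removed) and FLT1, a related receptor, by 0.98 ± 0.54 (0.34 with an offset of 10). In the transforming growth factor and growth factor list 7 of 10 were positive (median 0.09) and 0 passed. Besides TGFB3, TGFB1 differed by 0.55 ± 0.22 and SMAD4, the shared signal transducer, by 0.13 ± 0.10.

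Structural and matrix genes had mixed signs. In the keratin and trophectoderm list 5 of 7 were positive (median 0.19), against 43.2% of all probes, and 0 passed. The list median was 0.39 against small and -0.00014 against large spherical conceptuses. The keratins of simple epithelium differed little, with 0.21 ± 0.16 for KRT19 and 0.12 ± 0.18 for KRT8. KRT18, at 198 to 312 units on elongated and 220 to 317 on spherical arrays, differed by -0.02 ± 0.13, a sign that turned under cyclic loess normalization. Of 8 actin cytoskeleton genes 4 were positive (median -0.01) and 0 passed. TMSB10 and TAGLN2 (transgelin, 0.52 ± 0.18) were the members higher at the unadjusted level, while TMSB4X, the close relative of TMSB10, differed by 0.02. Of 17 matrix, integrin and protease genes 9 were positive (median 0.04) and 0 passed. MMP2, a gelatinase, had 82.0, 114 and 146 units on elongated and 61.4, 85.4 and 98.5 on spherical arrays (0.41 ± 0.14). COL4A2, a basement membrane collagen, differed by 0.54 ± 0.23, with 0.95 against large and 0.13 against small spherical conceptuses.

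Negative differences were the majority in the lists of cell division and protein folding. In the cell cycle list 8 of 9 genes were negative (median -0.17) and 0 passed. CENPF, a kinetochore protein, had 87.5, 120 and 157 units on elongated arrays and 133, 144 and 180 on spherical arrays, with 6 elongated arrays below all spherical ones (-0.31 ± 0.12, limma adjusted p = 0.379, and -0.18 on the 12 arrays numbered 2 to 4). Of 23 chaperone and proteasome genes 17 were negative (median -0.08) and 0 passed, led by the chaperone HSPA8 at -0.30 ± 0.11. Because 56.8% of all probes were negative, these shares are read against that background.

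The remaining lists had medians between -0.10 and 0.09, and 0 of their genes passed. Negative differences were the majority for ribosomal proteins, translation factors, mitochondrial respiration, carrier proteins and fatty acid activation, as they were over all probes (56.8%). The shares positive in these lists, 36.8% to 41.7%, lay near the 43.2% of all probes. Differences were positive in 9 of 22 for cytosolic ribosomal proteins (median -0.04), 5 of 12 for translation factors (-0.03), 7 of 19 for mitochondrial respiration (-0.08) and 5 of 12 for carrier proteins of yolk sac endoderm (-0.01). Glucose transport and glycolysis had 3 of 5 (0.09), interferons and interleukins 6 of 11 (0.09), oxidative stress 3 of 6 (0.06), fatty acid activation 2 of 5 (-0.10) and steroid receptors with prostaglandin synthesis 3 of 5 (0.01). GAPDH differed by -0.05 ± 0.10 and SLC2A1, a glucose transporter, by 0.09 ± 0.13. IL12B, a cytokine subunit, was dim, at 0.157 to 9.93 units on elongated and 1.19 to 10.8 on spherical arrays, and differed by -1.07 ± 0.50, or -0.10 with an offset of 10.

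**Figure D5:**
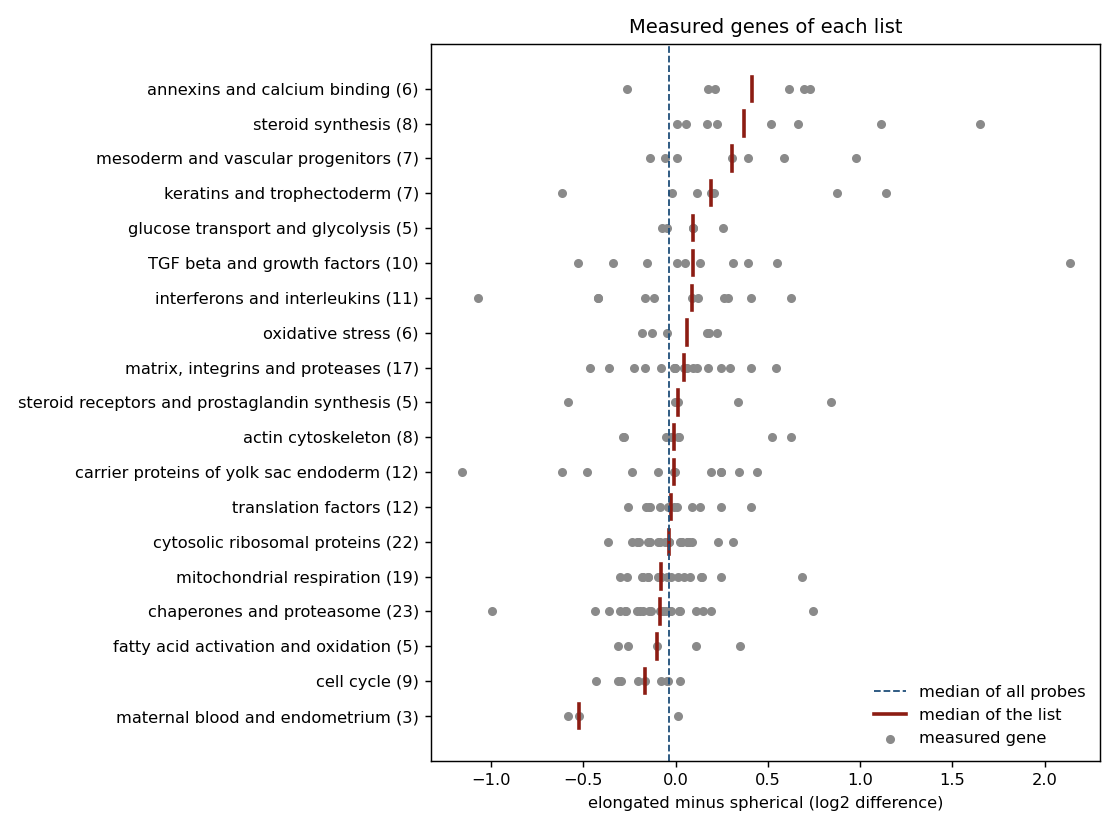
Log2 difference, elongated minus spherical, of each measured gene (points) in 19 lists, with the number of measured genes in parentheses, the median of each list (red) and the median of all probes (dashed, -0.04). The annexin list has the highest median, 0.41, and all 8 points of steroid synthesis lie above 0.

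Some genes had their highest mean at the large spherical stage and small pooled differences, and the spherical step of those named here did not pass the adjustment. ACSL3, which activates long-chain fatty acids, had stage means of 35.2, 106, 91.8 and 69.5 from small spherical to filamentous conceptuses, a spherical step of 1.62 ± 0.35 (limma adjusted p = 0.0545) and a pooled difference of 0.35 ± 0.25, which was 0.58 without small spherical replicate 3 and filamentous replicate 1. CTSC, a lysosomal cysteine protease, had stage means of 40.7, 89.5, 74.2 and 56.3, a spherical step of 1.13 ± 0.26 (limma adjusted p = 0.0669) and a pooled difference of 0.06 ± 0.19, which turned negative in some alternatives. SMAD4 and SOD1, an enzyme of superoxide removal, likewise had 7.90% and 8.35% of their stage variation on shape, with limma adjusted p of 0.0669 and 0.0878 for the spherical step.

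Markers of cell types were compared as summed intensities. For trophectoderm 4 of 10 markers were measured, with sums of 375 to 501 on elongated and 336 to 484 on spherical arrays. For hypoblast and yolk sac endoderm 7 of 12 were measured, with 516 to 810 on elongated and 478 to 616 on spherical arrays. For mesoderm 3 of 7 gave 92.8 to 126 on elongated and 93.0 to 116 on spherical arrays. DPPA5, the single measured marker of 6 for epiblast, had 3.77 to 26.2 and 3.10 to 15.5. Maternal tissue was represented by CD3E of 8 blood markers, at 0.330 to 3.63 on elongated and 1.79 to 4.34 on spherical arrays, and by 2 of 7 endometrial markers, at 9.59 to 34.8 and 17.5 to 32.9. In the list of maternal blood and endometrium 1 of 3 genes was positive (median -0.52). All ranges overlapped between the shapes, 0 of these markers passed in limma, and only PLAC1 and KDR were at the unadjusted level. Keratins were among the measured markers, but their values alone do not establish the tissue named by the labels. The part of cell composition in any gene's difference was not tested.

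The leading genes kept the sign of their difference with and without the arrays numbered 1. Over the 12 arrays numbered 2 to 4 the log2 difference was 1.10 ± 0.15 for STAR (limma adjusted p = 0.0151) and 2.10 ± 0.31 for TGFB3 (adjusted p = 0.0151). For PLAC1 it was 1.01 ± 0.18 (adjusted p = 0.0426). CYP17A1 was the remaining probe of the 4 that passed, and it had the opposite sign on the arrays numbered 1. Among the 4 arrays numbered 1 the difference was 1.15 for STAR, 2.24 for TGFB3 and 0.48 for PLAC1. TMSB10 differed by 0.63 over the 12 arrays and 0.61 over the 4, GABARAPL2 by 0.79 and 0.89, ANXA2 by 0.56 and 0.78, and YWHAH by -0.51 and -0.79. DLD was less even, at 0.54 and 1.11. The median of the steroid synthesis list was 0.44 over the 12 arrays with 7 of 8 genes positive, and 0.05 over the 4 arrays with 6 of 8 positive.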

How the data were processed

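The deposited table holds 1 linear intensity per probe and array, for 1015 probes on 16 arrays. Per the labels, RNA was amplified and hybridised as phosphorus-labelled target. Scanning, background subtraction and normalization were not given in the sources used here. Deposited intensities ran from 0.120 to 805, and up to 8 probes shared an array's maximum, so bright probes may be saturated and dim probes have no measured floor. Array medians spanned 0.185 on the log2 scale, so log2 values were used without further normalization or pseudocount. Probe 357 was constant and was left out, and 0 value columns were unused.

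Probe names came from the platform annotation, with 676 probes carrying 1 symbol, 15 several and 324 none. These gave 638 genes, 34 with several probes, of which the brightest stood for the gene. Of 674 probes with 1 Entrez identifier, 668 were in the RefSeq table and 0 symbols differed.

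limma 3.58.1 in R 4.3.3 fitted 1 mean per stage to all 16 arrays. The contrast was the mean of tubular and filamentous minus the mean of small and large spherical, with Benjamini-Hochberg adjustment over 1014 probes. Single genes were also tested by exact permutation. Named genes were up to 12 higher and 12 lower by p at the unadjusted level of 0.05, those without overlap, up to 3 per list and 16 further chosen genes, 78 in all. Members and lists were chosen with earlier results of these data known. On 20 simulated sets with 200 changed probes the shape contrast recovered 43.3% at a log2 size of 0.5, 83.7% at 1 and 97.7% at 2, with 4.13% false calls. The simulated noise was independent and normal, with no step between stages of a shape and no set of arrays apart. So many changed probes also ease the adjustment. The shares therefore check the procedure and do not give the power reached in these data. Alternatives covered the scaling, an offset, a filter on dim probes, array weights, blocks and leaving out arrays. Figures were drawn with matplotlib 3.10.9.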

Additional observations from a re-analysis of the deposited data

Results flagged for a closer look

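In 14 of 156 sets of 8 arrays examined for the named genes, 1 array stood apart by Dixon's ratio (the gap to the nearest other array over the whole range). Chance passes its limit in about 1 of 20 sets. For the leading genes, filamentous replicate 1 had 14.2 units of TGFB3 against 50.2 to 99.5 on the other elongated arrays (ratio 0.649). Small spherical replicate 4 was low in TMSB10, at 46.4 against 70.1 to 93.7 units on the other spherical arrays (0.588), in GABARAPL2, at 22.4 against 41.2 to 58.4 (0.636), and in KRT8 (0.751). Tubular replicate 1 was high in ANXA4, at 101 against 20.1 to 41.3 units (0.554), and low in CD3E (0.551). Small spherical replicate 1 was low in TAGLN2 (0.684) and high in CCNA2 (0.622), TUBA1B (0.673) and LDHB (0.551). Large spherical replicate 1 was high in CENPF (0.636), large spherical replicate 4 high in IL12B (0.534) and large spherical replicate 3 low in PSMB2 (0.527). Filamentous replicate 2 was low in CEBPZOS (0.583).

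The difference of elongated conceptuses from small spherical and from large spherical ones was unequal in 4 probes, by limma's test of the spherical step. The adjusted p was 0.00207 for STAR, 0.0148 for probe 1010, 0.0212 for TGFB3 and 0.0229 for probe 954. Probe 954 had 1.35 against small and -0.61 against large spherical conceptuses on the log2 scale, and probe 1010 had 1.24 and 0.08.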

How the results depend on the processing

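STAR passed in 28 of 29 alternatives and missed with 1 mean per shape, where its log2 difference of 1.11 had a limma adjusted p of 0.346 and 0 probes passed (102 at the unadjusted level). Elsewhere the number of probes that passed for shape was 2 with quantile and 3 with cyclic loess normalization, 3 with a term for arrays carrying the number 1, 4 on the 12 arrays numbered 2 to 4, 4 without both small spherical replicate 3 and filamentous replicate 1, 6 with array weights and 6 with a variance trend and robust prior. Leaving out 1 array gave 1 to 5. The count against large spherical conceptuses was 0 in all of its 28 alternatives. Against small spherical conceptuses (23) it was 37 with cyclic loess, 40 without the dimmest 25% of probes, 36 with an offset of 10, 39 with that term for number 1, 13 on the 12 arrays, 49 without both arrays, 46 with array weights and 39 with the variance trend, and 5 to 44 leaving out 1 array. Probes without overlap numbered 5 on the 12 arrays and 2 to 4 leaving out 1 array. TMSB10 and GABARAPL2 stayed among them by construction, since leaving out arrays cannot create an overlap. The causes were not tested.

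The titles number the arrays 1 to 4 in every stage. Deviations of same-numbered elongated and spherical arrays correlated at 0.639, 0.0547, 0.266 and 0.230, and 1 of these is under 0.1, so the numbers were not taken to pair the arrays. With a replicate block 3 probes passed for shape (STAR, TGFB3 and TMSB10) and 45 against small spherical conceptuses.

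Over 2735 pairs of an item and an alternative, 24 changed sign, and the other probe of IFNG (0.36) opposed its main probe. FABP3 was -0.020 and CYP19A1 -0.024 with array weights, LDHB -0.0017 and KRT18 0.028 without both arrays, KRT18 0.032 with cyclic loess, CTSC -0.0085 and ACP5 -0.12 with a trend along probe number removed, and ACP5 -0.094 with quantile normalization. Leaving out 1 array, CYP19A1 ran from -0.0022 to 0.11, CTSC from -0.018 to 0.17, KRT18 from -0.074 to 0.035 and ACP5 from -0.14 to 0.16. List medians ran from 0.23 to 0.61 for steroid synthesis, 0.21 to 0.47 for annexins and -0.22 to -0.11 for the cell cycle. Precision is limited by 4 arrays per stage and unknown background for dim probes.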

Other observations

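Retinol transport was measured by 3 RBP4 probes, all with a positive difference on the log2 scale (0.44 ± 0.24, 0.52 ± 0.44 and 0.43 ± 0.29), and none passed in limma. The brightest averaged 55.0 intensity units in elongated and 42.5 in spherical conceptuses. APOA1, the main protein of high-density lipoprotein, differed by 0.34 ± 0.18 on its brighter probe and by 1.41 ± 0.55 on a dim probe that averaged 5.57 units in elongated and 2.04 in spherical conceptuses. Without tubular replicate 1 the dim APOA1 probe was among the 2 probes that passed for shape. The brighter APOA1 probe passed in 0 of 29 alternatives. Of the 107 probes at the unadjusted level, 24 higher and 15 lower ones had no single gene symbol. Probe 1010 differed by 0.66 ± 0.14 (limma adjusted p = 0.0743) and probe 478 by -0.73 ± 0.20 (adjusted p = 0.159).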
